A study of Bos taurus with 170 samples.

Results

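The subcortical maternal complex is a protein assembly that the oocyte stores beneath the plasma membrane and passes to the early embryo. NLRP5 (also called MATER), OOEP, TLE6, PADI6, KHDC3L and NLRP2 were taken as its genes by their names, without a threshold on measured values. Of these 6 genes, 2 were listed among the 10772 genes of the UMI table, namely NLRP5 and OOEP. TLE6, PADI6, KHDC3L and NLRP2 were not listed under these symbols or the RefSeq synonyms of the genes, and they are not analysed here. All values rest on the 161 of 170 cells with 2000 or more unique molecular identifiers (UMI), tags by which the copies of 1 captured mRNA molecule are counted once.

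The complex is built from oocyte transcripts, and in mammals its loss in the mother stops or disturbs the first cleavages of her embryos. NLRP5 is an NLR family protein that forms the core of the complex together with TLE6 and OOEP, and OOEP is a small protein with a KH-like domain. Maternal transcripts of this kind are broken down while the embryo begins to transcribe its own genome, which in cattle happens mainly around the stages sampled here.

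Blastomeres came from bovine embryos made by in vitro maturation and fertilization and cultured in synthetic oviductal fluid, without any further treatment. The 6 Day 2 embryos, labelled as 8-cell stage, gave 43 cells, and the 8 Day 3 embryos, labelled as 16-cell stage, gave 118. Cells were profiled by SCRB-Seq, which counts UMI at the 3′ end of polyadenylated transcripts. The labels give neither the sex of the embryos nor their parents, and all embryos shared one culture system.

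The embryo was the replicate, since cells of 1 embryo are not independent. The level of a gene in an embryo is given in CPM, its UMI per 1000000 UMI on genes, summed over the cells of that embryo. Gene UMI per embryo ranged from 438899 to 920192 on Day 2 and from 294912 to 600185 on Day 3. The libraries stood apart in 1 measure, whose cause was not tested. UMI on genes per UMI on the added ERCC spike-in RNA lay at 64.8 to 71.7 in the Day 2 embryos and at 67.3 to 70.5 in Day3-E1 to Day3-E3, but at 32.6 to 40.2 in Day3-E4 to Day3-E8. The barcodes in the labels follow nearly the same line. Those of Day3-E4 to Day3-E8 form a second set, those of Day3-E1, Day3-E2 and every Day 2 embryo a first one, and the labels do not settle to which set Day3-E3 belongs. Of 93 barcodes, 77 were used by 2 cells. Day and barcode set therefore overlap, and results are also given for Day3-E1 to Day3-E3 alone. All 7 listed oocyte markers of 10 (GDF9, ZAR1, ZP2, ZP3, ZP4, NPM2 and KPNA7) had UMI in all 14 embryos. This was not particular to them, since 2939 genes had 10 or more UMI in each embryo. Of 10 listed markers of cumulus and granulosa cells, 4 also had UMI in every embryo. Detection in all embryos therefore does not show the origin of the cytoplasm.

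Both members were present at even levels in the Day 2 embryos and varied widely among the Day 3 embryos. NLRP5 had 246, 301, 277, 303, 293 and 283 CPM in Day2-E1 to Day2-E6. In Day3-E1 to Day3-E8 it had 337, 105, 251, 68.7, 140, 35.1, 64.7 and 36.0 CPM. Day3-E1 thus lay above every Day 2 embryo and Day3-E3 within their range, whereas the other 6 Day 3 embryos lay below it. The Day 2 mean was 284 ± 21.2 CPM (SD, n = 6) and the Day 3 mean 130 ± 110 (SD, n = 8).

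OOEP had 280, 313, 313, 300, 293 and 287 CPM in Day2-E1 to Day2-E6. It had 225, 156, 225, 114, 265, 188, 158 and 59.2 CPM in Day3-E1 to Day3-E8. All 8 Day 3 embryos lay below all 6 Day 2 embryos, a pattern shown by 284 of 5274 genes tested (5.38%). The Day 2 mean was 298 ± 13.49 CPM (SD, n = 6) and the Day 3 mean 174 ± 66.7 (SD, n = 8).

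**Figure D1:**
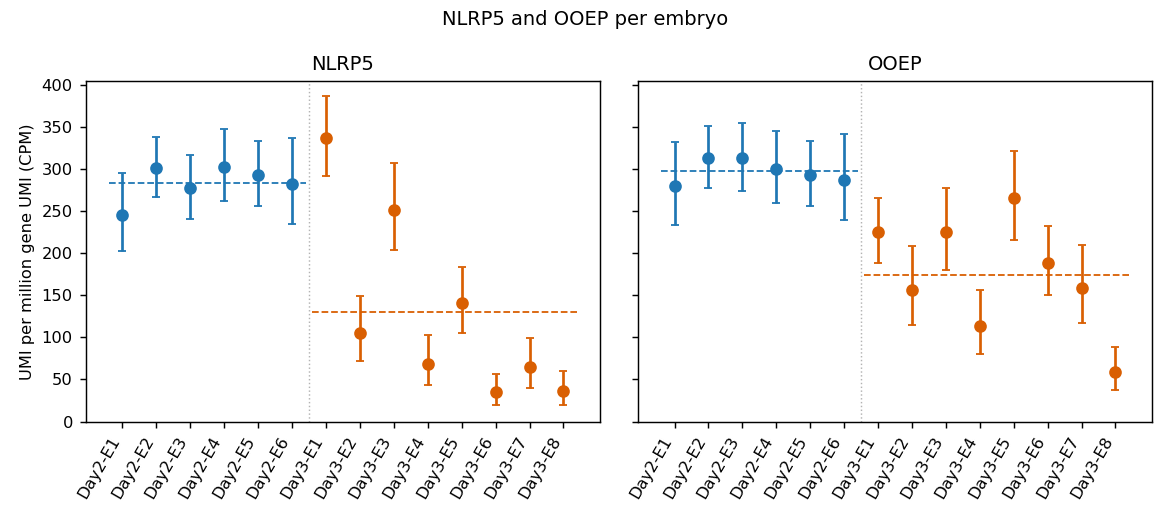
Level of NLRP5 (left) and OOEP (right) in CPM for each embryo, Day 2 in blue and Day 3 in orange. Points are embryo sums, bars exact 95% Poisson intervals for counting error only, and dashed lines the mean of each day. The Day 2 embryos lie between 246 and 313 CPM for both genes, while Day 3 embryos spread from 35.1 to 337 CPM for NLRP5 and from 59.2 to 265 for OOEP.

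The comparison of the days asked whether these maternal transcripts fell between the 8-cell and the 16-cell stage. OOEP fell, at a log2 fold change of -0.56 ± 0.19 (standard error), with an adjusted p of 0.0344 by the quasi-likelihood test of edgeR, adjusted after Benjamini and Hochberg over 5274 genes. NLRP5 had the larger difference and the larger spread, at -0.94 ± 0.37 (standard error) on the same scale, and did not pass the threshold of 0.05 (adjusted p = 0.0576 by the same test). So 1 of the 2 listed members was called, where 32.5% of all genes tested were called in either direction. Over all genes tested, the median of the log2 fold change was -0.04. The levels are sums over the cells of an embryo, so that fewer cells with the transcript and less transcript per cell cannot be told apart in them.

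These calls depended on which Day 3 embryos entered. Without Day3-E1 or without Day3-E3, NLRP5 passed the threshold (log2 fold change -1.26 with adjusted p = 0.00465, and -1.12 with adjusted p = 0.0262 by edgeR). Against Day3-E1 to Day3-E3 alone, its log2 fold change was -0.14 (adjusted p = 0.748 by edgeR), where neither member was called and 9.15% of 5926 genes tested were, and when only the first barcode set entered it was -0.20 (adjusted p = 0.752). Against the 5 embryos of the second set it was -1.74 (adjusted p = 0.00013). The comparison with the second set called 2455 of 5266 genes tested, and the first set alone 351 of 6193. OOEP kept its direction in the same comparisons, with -0.40 (adjusted p = 0.0888), -0.47 (adjusted p = 0.120) and -0.64 (adjusted p = 0.0289 by edgeR). Its call was also lost without Day2-E2, Day2-E3, Day2-E4, Day3-E2 or Day3-E4, with adjusted p between 0.0526 and 0.0622 by edgeR.

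**Figure D2:**
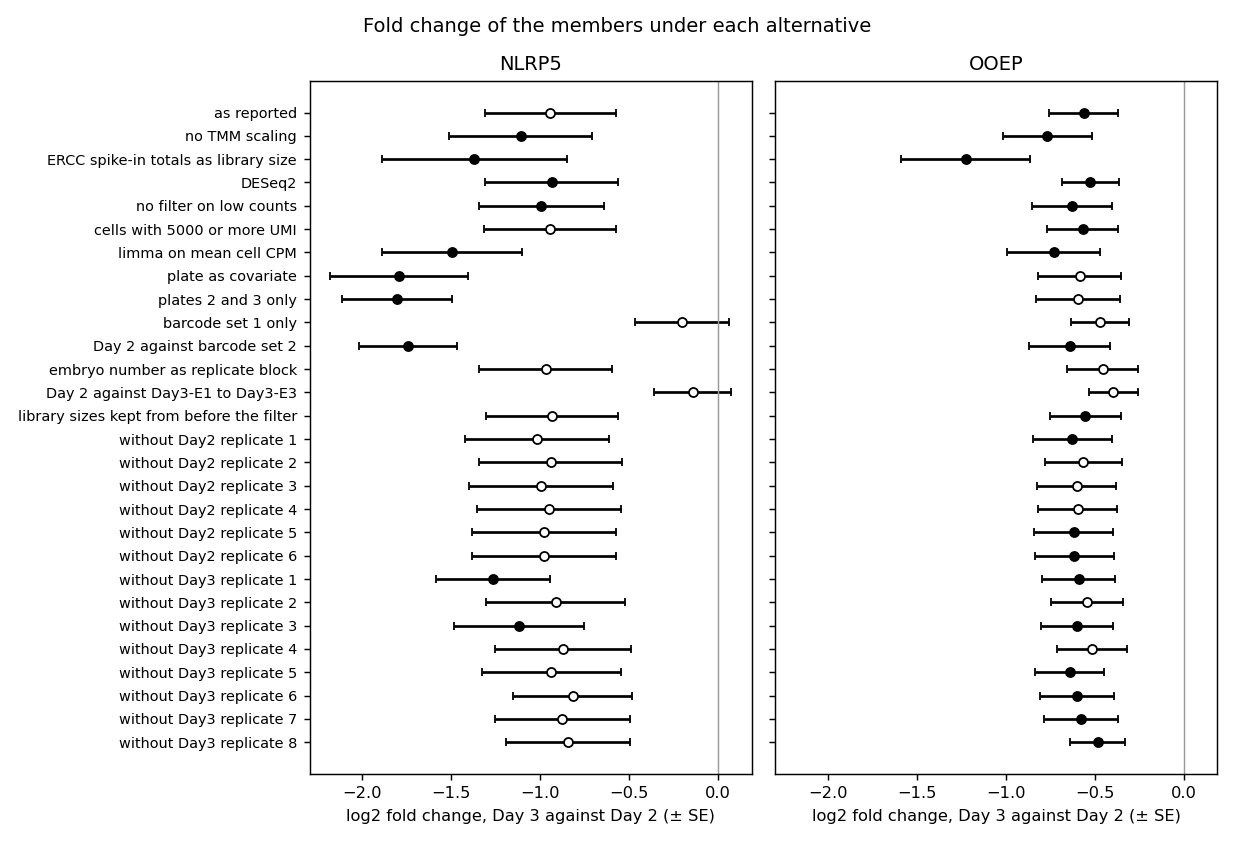
Log2 fold change of NLRP5 (left) and OOEP (right) between Day 3 and Day 2, with its standard error, under the reported fit and each alternative. Filled points passed the threshold of 0.05 on the adjusted p and open points did not. Every value lies below 0, from -1.80 to -0.14 for NLRP5 and from -1.23 to -0.40 for OOEP.

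The cell titles end in p1, p2 or p3, which is read here as the plate, and the paper does not explain this ending. On the plates that held both days, the order of the days was the same. On plate 2, NLRP5 had a mean of 288 CPM in 2 Day 2 embryos and 50.3 in 2 Day 3 embryos, and OOEP had 290 and 109. On plate 3, NLRP5 had a mean of 282 CPM in 4 Day 2 embryos and 87.7 in 2 Day 3 embryos, and OOEP had 301 and 227. In both plates no Day 3 embryo reached the range of the Day 2 embryos for either gene. With 2 Day 3 embryos per plate such a separation can arise by chance, and its share over all genes was not counted. Plate 1 held 4 Day 3 embryos and none of Day 2, among them Day3-E1 and Day3-E3. With plate as a covariate the log2 fold change was -1.79 for NLRP5 (adjusted p = 0.00462 by edgeR) and -0.59 for OOEP (adjusted p = 0.0665), so the call turned for both. That fit called 1618 of 5274 genes tested. The Day 3 embryos of plates 2 and 3 are Day3-E5 to Day3-E8, all of the second barcode set and of low gene to ERCC ratio, and the Day 2 embryos are all of the first set. Day and barcode set therefore cannot be told apart within these plates or with plate as a covariate.

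Relative to the spike-ins the members lay further apart between the days, and genes in general lay lower on Day 3. NLRP5 had 15.9 to 20.6 UMI per 1000 ERCC UMI in the Day 2 embryos, 7.08 to 23.7 in Day3-E1 to Day3-E3 and 1.14 to 5.64 in Day3-E4 to Day3-E8. OOEP had 18.1 to 22.4 UMI per 1000 ERCC UMI on Day 2, 10.502 to 15.8 in Day3-E1 to Day3-E3 and 2.31 to 10.65 in Day3-E4 to Day3-E8. With ERCC totals as library size the log2 fold change was -1.37 for NLRP5 (adjusted p = 0.0379 by edgeR) and -1.23 for OOEP. In that fit the median over all 5274 genes tested was -0.77, against -0.04 without the spike-ins. It called 1907 genes as lower and 456 as higher. The ratio of gene to ERCC UMI changes at the same embryos as the barcode set, apart from Day3-E3 of unsettled set, and both cannot be told apart.

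Among the Day 3 embryos the order of the levels differed between the genes. For NLRP5 it ran from Day3-E1 and Day3-E3 over Day3-E5, Day3-E2, Day3-E4 and Day3-E7 to Day3-E8 and Day3-E6. Only Day3-E3 and Day3-E5 were neighbours whose counting intervals did not overlap (204 to 307 against 105 to 183 CPM, exact 95% Poisson intervals). For OOEP the order was Day3-E5, Day3-E3, Day3-E1, Day3-E6, Day3-E7, Day3-E2, Day3-E4 and Day3-E8. The counting intervals of all neighbours in that order overlapped, which does not show that their levels were equal. The interval of the highest embryo (216 to 322 CPM) lay above that of the lowest (37.5 to 88.8). The highest Day 3 value was 9.60 times the lowest for NLRP5 and 4.48 times for OOEP. Among the Day 2 embryos the same ratios were 1.23 and 1.12. The paper gives later collection times for Day3-E5 to Day3-E8 than for Day3-E1 to Day3-E4. The later embryos all belong to the second barcode set, so collection time and set overlap. The relation of the levels to collection time was not tested.

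The make-up of the pair also differed between embryos. NLRP5 took 46.7% to 50.3% of the summed UMI of both genes in the 6 Day 2 embryos. In Day3-E1 it took 59.9% of 337 UMI (95% Clopper-Pearson interval 54.5 to 65.2) and in Day3-E3 52.7% of 182 UMI (45.2 to 60.2). In Day3-E6 it took 15.7% of 102 UMI (9.24 to 24.2), the lowest share, and in the other 5 Day 3 embryos 29.0% to 40.3%. By point value Day3-E1 and Day3-E3 lay above every Day 2 embryo in this share, and the other 6 Day 3 embryos below. The interval of Day3-E3 covered the whole Day 2 range, as did those of Day3-E2 (29.2 to 52.1), Day3-E4 (25.6 to 51.0) and Day3-E8 (22.5 to 55.2). Those of Day3-E1, Day3-E5, Day3-E6 and Day3-E7 did not reach it. This share was noticed after the levels had been seen and was not tested.

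**Figure D3:**
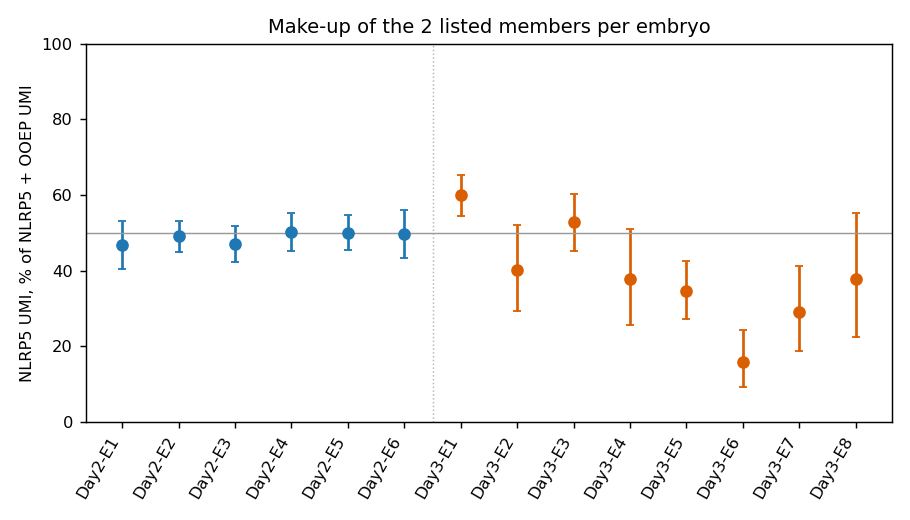
NLRP5 UMI as a percentage of the summed NLRP5 and OOEP UMI in each embryo, Day 2 in blue and Day 3 in orange, with 95% Clopper-Pearson intervals for counting error. The Day 2 embryos lie at 46.7% to 50.3%, and the Day 3 embryos range from 15.7% to 59.9%.

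Most single blastomeres still held transcripts of both genes. NLRP5 had 1 or more UMI in 95.3% of Day 2 cells, 41 of 43 (Wilson 95% interval 84.5 to 98.7), and in 78.0% of Day 3 cells, 92 of 118 (69.7 to 84.5). OOEP had 1 or more UMI in 93.0% of Day 2 cells, 40 of them (81.4 to 97.6), and in 84.7% of Day 3 cells, 100 of them (77.2 to 90.1). Both genes were detected together in 39 Day 2 and 80 Day 3 cells, and neither in 1 Day 2 and 6 Day 3 cells. The Day 2 cell without either gene held 2988 UMI on genes, and the Day 3 cells 3341 to 23708. These Wilson intervals pool cells over embryos as if they were independent and leave out the spread between embryos. By embryo, the share ranged from 83.3% to 100% on Day 2 for both genes. On Day 3 it ranged from 57.1% to 100% for NLRP5 and from 60% to 94.1% for OOEP. All other intervals here cover counting error only. The share expected in cells that lack the transcripts was not measured, since no such cells were sampled.

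Day 2 cells were deeper, with a median of 76074 UMI against 24696 on Day 3, so all cells were thinned to an equal 10000 UMI before the shares were compared. Too shallow for this were 6 Day 2 and 15 Day 3 cells, and 37 and 103 remained. The share of thinned cells with a UMI of NLRP5 was 93.2% ± 7.53 on Day 2 (SD, n = 6 embryos) and 67.3% ± 22.4 on Day 3 (SD, n = 8 embryos), from 28.6% in Day3-E8 to 92.3% in Day3-E1 and Day3-E2. That of OOEP was 91.0% ± 10.68 on Day 2 and 76.8% ± 17.9 on Day 3, from 42.9% in Day3-E8 to 100% in Day3-E3. Neither difference passed the threshold by an exact two-sided permutation test over embryos with adjustment over 5274 genes (p = 0.0173 and adjusted p = 0.105 for NLRP5, p = 0.111 and adjusted p = 0.266 for OOEP). The same test called 141 genes (2.67%).

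**Figure D4:**
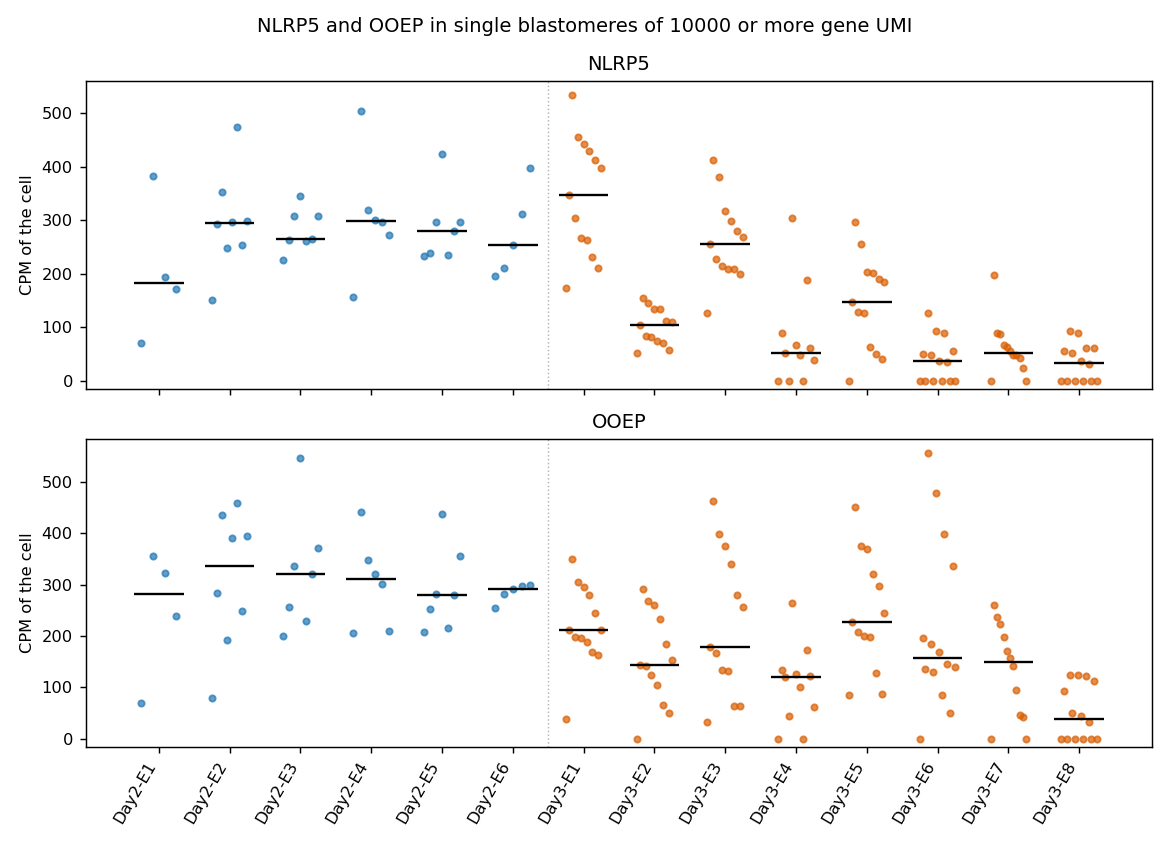
CPM of NLRP5 (top) and OOEP (bottom) in single blastomeres with 10000 or more UMI on genes, by embryo, Day 2 in blue and Day 3 in orange. Each point is a cell and each black line the median of the embryo. Cells without a UMI of NLRP5 occur in Day3-E4 to Day3-E8 and in none of the Day 2 embryos, whose cells were deeper. At an equal 10000 UMI, Day2-E2, Day2-E3 and Day2-E5 also held cells without one, with NLRP5 in 87.5%, 85.7% and 85.7% of cells.

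The spread between the cells of an embryo was measured as the squared coefficient of variation in excess of Poisson counting error, in which a value near or below 0 stands for no excess. For NLRP5 it was 0.0455 ± 0.0708 on Day 2 (SD, n = 6 embryos) and 0.0619 ± 0.27 on Day 3 (SD, n = 8 embryos). Day2-E1 had the highest NLRP5 value of Day 2, 0.18, at or above 93.3% of genes in that embryo, and without it the Day 2 mean was 0.0186. The difference between the days had an adjusted p of 0.925 by an exact two-sided permutation test over embryos. Its direction turned without Day3-E4, to -0.0647, and with cells thinned to 10000 UMI, to -0.191. Day3-E4 had the highest NLRP5 value, 0.63, where 1 cell with 6.89% of the UMI on genes held 7 of 23 NLRP5 UMI. In Day3-E2, each of 14 cells held 1 to 4 NLRP5 UMI and the value was -0.32, the lowest.

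For OOEP the excess spread was 0.0184 ± 0.0271 on Day 2 (SD, n = 6 embryos) and 0.1 ± 0.0948 on Day 3 (SD, n = 8 embryos), with an adjusted p of 0.292 by the same exact permutation test. The highest values were 0.261 in Day3-E3 and 0.225 in Day3-E8, and the lowest Day 3 value was -0.00505 in Day3-E1. Over the 2939 genes with 10 or more UMI in each embryo, the median was 0.023 on Day 2 and 0.115 on Day 3, and 91.9% of these genes had a higher mean on Day 3. By the permutation test 0 genes (0%) were called at the adjusted threshold, with 510 at an unadjusted p under 0.05. NLRP5 had 14 to 277 UMI per embryo, which limits the precision of its spread.

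Cells rich in one member were not regularly rich in the other. Over cells with 10000 or more UMI, Spearman's rho between NLRP5 and OOEP had a median of -0.11 across the 14 embryos. It was below 0 in 8 of them and ranged from -0.89 (6 cells of Day2-E4) to 0.70 (5 cells of Day2-E6). On Day 3, with 11 to 14 cells per embryo, it ranged from -0.21 to 0.66. These values rest on few cells and low counts of the same libraries, and they are given as a description.

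The Day 3 embryos were then ordered by genes that the embryo itself transcribes. A list of 20 genes first transcribed at the eight-cell stage, which the study took from an earlier data set and kept where detected here, summed to 88.3 to 165 CPM across Day 2 embryos. Its sums in Day3-E1 to Day3-E8 were 130, 1021, 429, 2074, 296, 872, 1002 and 2132 CPM. Of the 20 genes, 3 passed the filter on low counts. ADAMTS1, a secreted metalloproteinase, had 0 to 2.17 CPM in the Day 2 embryos and 0 to 193 in the Day 3 embryos. FOLR1, a folate receptor, had 10.66 to 17.2 CPM on Day 2 and 10.00 to 1121 on Day 3, and DDX3Y, an RNA helicase, 59.8 to 126 and 61.6 to 363. DDX3Y alone had a mean of 86.2 CPM on Day 2, where the whole list summed to 88.3 to 165. On Day 3 FOLR1 (420 CPM) and DDX3Y (217 CPM) had the highest means of the list and so weigh heavily in its sum. The sex of the embryos is not given, and its part in the level of DDX3Y was not tested. For all 3 genes the lowest Day 3 embryo lay within the Day 2 range or below it. A gene near 0 on one day can pass that filter only through the other, so these values are a description and no test is given.

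Embryos with more of these activation transcripts held less of both members. Over the 8 Day 3 embryos, Pearson's r on the log2(CPM + 1) scale was -0.83 for NLRP5 (exact permutation p = 0.0114, adjusted p = 0.0419 over 5271 genes) and -0.81 for OOEP (exact permutation p = 0.0135, adjusted p = 0.0458). Spearman's rho was -0.67 for NLRP5 (exact permutation p = 0.0831) and -0.93 for OOEP (exact permutation p = 0.00223). Among the 5271 genes 31.9% were called in either direction, the median r was -0.49, and 14.36% of the genes had an r at or below that of NLRP5 and 17.4% at or below that of OOEP. Both members are shares of the same UMI total as the activation genes.

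Without Day3-E1 and Day3-E5, the embryos farthest from the median of the activation level, r was -0.69 for NLRP5 (exact permutation p = 0.140) and -0.87 for OOEP (exact permutation p = 0.0181). The relation of NLRP5 thus no longer passed its test without those embryos, at a smaller n and with the same direction. The calls after adjustment over all genes were lost for both members without these embryos and with levels relative to ERCC (r = -0.56 and -0.70), and for each member when any of 7 of the 8 embryos was left out. Fewer embryos raise the smallest exact p that can be reached. Losses with embryos left out therefore do not by themselves show dependence on those embryos. Day3-E1, Day3-E2 and Day3-E3, of higher gene to ERCC ratio, held 130 to 1021 CPM of activation transcripts and the other 5 embryos 296 to 2132. No plate or barcode set holds 6 Day 3 embryos, the fewest for which a correlation is given. Within the second barcode set, ordered by rising activation level (Day3-E5, Day3-E6, Day3-E7, Day3-E4 and Day3-E8), OOEP had 265, 188, 158, 114 and 59.2 CPM and NLRP5 had 140, 35.1, 64.7, 68.7 and 36.0. OOEP was thus lower at each step of that order, and NLRP5 was not.

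**Figure D5:**
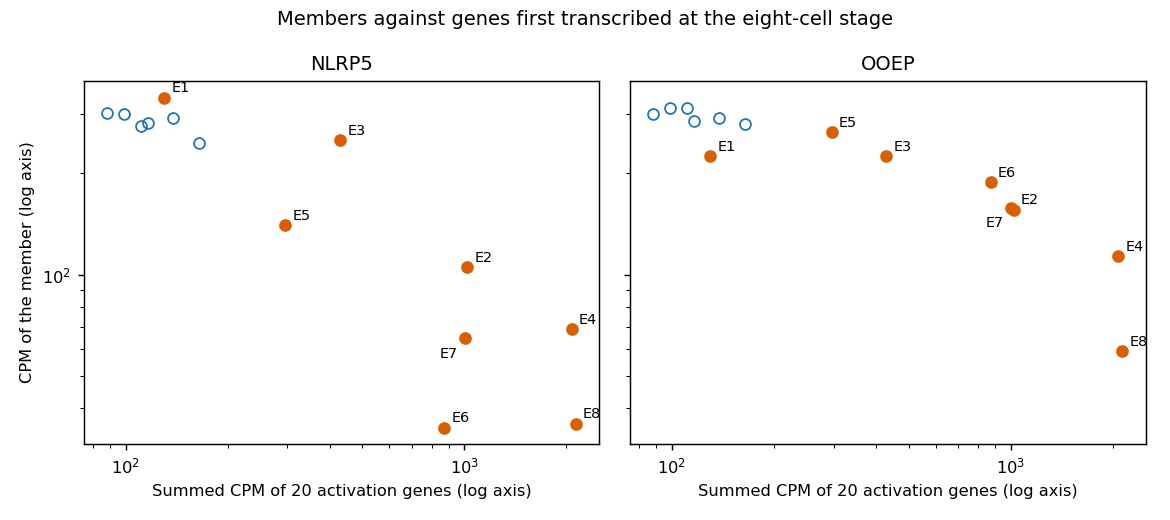
CPM of NLRP5 (left) and OOEP (right) against the summed CPM of 20 genes first transcribed at the eight-cell stage, both on log axes. Filled orange points are the 8 Day 3 embryos with their numbers and open blue points the 6 Day 2 embryos, which enter no correlation. Day3-E8, with 2132 CPM of activation transcripts, has 36.0 CPM of NLRP5 and 59.2 of OOEP, and Day3-E1, with 130, has 337 and 225.

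The genes whose levels ran most like the sum of both members over the 14 embryos were RNF34, ZNF512, NUSAP1, ZBTB43 and ANAPC13, with Pearson's r between 0.98 and 0.99 on the log2(CPM + 1) scale. NUSAP1, a protein of the mitotic spindle, went from 2803 ± 163 CPM on Day 2 (SD, n = 6) to 1250 ± 868 on Day 3 (SD, n = 8). RNF34, a ubiquitin ligase, went from 1086 ± 43.5 to 541 ± 296 CPM, and ANAPC13, a subunit of the anaphase-promoting complex, from 164 ± 18.4 to 71.0 ± 43.6. ZNF512 and ZBTB43 encode zinc finger proteins. NLRP5 and OOEP themselves had r = 0.82 with each other over the 14 embryos and 0.67 over the 8 Day 3 embryos. These genes were picked for their likeness, which is therefore a description.

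Of the partner genes of the complex, 3 rose and none was called as lower in the reported fit. A list of 10 genes linked to the complex or to the cytoplasmic lattices of the oocyte had 6 in the table. UBE2D3, a ubiquitin-conjugating enzyme, TUBA1A and TUBB, both tubulins, rose with log2 fold changes of 0.55, 1.28 and 1.45 (adjusted p = 0.016, 0.0437 and 0.00291 by edgeR), but UBE2D3 had -0.25 with ERCC totals as library size. UHRF1 and DNMT1, which maintain DNA methylation, had log2 fold changes of -0.26 and -0.56 and CFL1, an actin-severing protein, 0.92, none of which passed the test (adjusted p = 0.248, 0.0608 and 0.0629). Over all 5274 genes tested, 1117 were called as higher and 595 as lower. The median over the 6 genes was 0.73, against -0.04 over all genes tested. Against Day3-E1 to Day3-E3 alone 0 of the 6 were called by edgeR, with 2 at an unadjusted p under 0.05, and with ERCC totals as library size none was called as higher and 2 as lower. Under the 13 other settings TUBA1A lost its call in 8, UBE2D3 in 6 with 1 reversed, and TUBB in 3. DNMT1 was called as lower in 6 of them, UHRF1 as lower in 1 and CFL1 as higher in 3.

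Among paralogues of the members, 9 of 25 genes were in the table and 4 could be tested. NLRP9, another NLR gene expressed in oocytes, fell with a log2 fold change of -1.24 (adjusted p = 0.0147 by edgeR), from 727 ± 133 CPM on Day 2 (SD, n = 6) to 274 ± 191 on Day 3 (SD, n = 8). TLE1, a transcriptional co-repressor related to TLE6, rose with a log2 fold change of 1.75 (adjusted p = 0.0152). Against Day3-E1 to Day3-E3 alone the log2 fold change was -0.61 for NLRP9 (adjusted p = 0.0394 by edgeR) and 0.086 for TLE1 (adjusted p = 0.934). TLE1 also lost its call with ERCC totals as library size (0.63, adjusted p = 0.157), and both lost it with the first barcode set alone (-0.55 for NLRP9 and 0.049 for TLE1, adjusted p = 0.143 and 0.976). TLE4 and AES, of the same family, had log2 fold changes of 0.13 and -0.83 and were not called (adjusted p = 0.805 and 0.0843). The direction of TLE4 turned under 5 of the 13 other settings.

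Other genes known from the oocyte gave 15 tested genes of 16 in the table and 29 named. Of these, 7 fell, 1 rose and 7 did not pass the test, with a median log2 fold change of -0.53, where 32.5% of all genes tested were called in either direction. ZAR1, a regulator of maternal mRNA translation, OOSP1, an oocyte-secreted protein, and GDF9, an oocyte growth factor, fell with log2 fold changes of -1.49, -1.24 and -0.97 (adjusted p = 0.00359, 0.0177 and 0.025 by edgeR). NPM2, a histone chaperone, KIT, a receptor tyrosine kinase, and BUB1B, a spindle checkpoint kinase, fell with log2 fold changes of -0.85, -0.79 and -0.73 (adjusted p = 0.0303, 0.00997 and 0.0384). AURKC, a meiotic kinase, was the 1 gene that rose, with a log2 fold change of 0.56 (adjusted p = 0.00984 by edgeR), and is named after its value was seen. Its value was -0.17 with ERCC totals as library size, 0.046 with limma on mean cell CPM and 0.31 without TMM scaling, none of them called (adjusted p = 0.644, 0.884 and 0.171), and without Day2-E5 it was 0.45 (adjusted p = 0.0528 by edgeR). Against Day3-E1 to Day3-E3 alone, 2 of 16 tested genes of this list were called as lower and 1 as higher, against 9.15% of all genes in either direction, with a median log2 fold change of -0.22. The summed level of the 16 genes was 15717 to 18774 CPM on Day 2, 15289 in Day3-E1 and 4106 to 16164 over the Day 3 embryos.

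Markers of cumulus and granulosa cells, which surround the oocyte and were stripped from the zygotes, summed to lower levels in part of the Day 3 embryos. Of 12 markers 10 were in the table, and their sum was 519 to 640 CPM in the Day 2 embryos and 201 to 587 in the Day 3 embryos. HAS2 and STAR had UMI in all 14 embryos and carried most of that sum, and with VCAN they gave 3 tested genes, none of them called (log2 fold changes -0.19, -0.66 and -0.71, adjusted p = 0.487, 0.0776 and 0.149 by edgeR). AMH was at 0 in 9 of 14 embryos, PTX3 in 7 and TNFAIP6 in 5, and 4 of the 10 markers had UMI in every embryo. The part of such cells in the levels of NLRP5 and OOEP was not tested.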

How the data were processed

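Single blastomeres of 14 bovine embryos were profiled by SCRB-Seq. The authors mapped reads with STAR 2.5.2b to Bos tau7 and the ERCC sequences and generated UMI tables with the Drop-seq pipeline. The deposited table holds whole-number UMI counts of 170 cells. The deposited normalised table was not used. Members and gene lists were chosen with earlier results of these data known.

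Cells with 2000 or more UMI were kept, ERCC left out, and counts summed per embryo. Whether embryos shared parents or fertilization runs is not given in the sources used here, so p-values measure the spread between these embryos. Days were compared by edgeR (version 4.0.16) with TMM, filterByExpr and Benjamini-Hochberg adjustment at 0.05. Library sizes were first kept from before the filter and then recomputed after it. The second form, edgeR's usual one, was taken as the main fit after both had been seen, and neither member changed side of the threshold. Thinned shares, spread and relations used exact permutation tests over embryos. The spread estimate was corrected for the few cells per embryo after simulated cells gave values that were too low, when members had been seen. Named genes were the members, the 5 genes most like their sum and up to 6 per list, called genes of largest change first and then tested genes of highest level. The edgeR fit and the measure of spread were tested on simulated data. Gene names were matched to RefSeq (ARS-UCD2.0), a build other than the files', so no coordinates are given. Alternatives were DESeq2, limma with a pseudocount of 1 CPM, other scalings, filters and depths, plates, barcode sets, a replicate block and leaving out each embryo.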

Additional observations from a re-analysis of the deposited data

Results flagged for a closer look

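Among 82 groups of embryos checked for 1 embryo far from the others, 4 were picked out, about the 1 in 20 that chance gives, and all 4 were Day 2 groups of partner or oocyte genes. UBE2D3 had 2055 CPM in Day2-E6, against 1725 in the next highest Day 2 embryo. NPM2 had 1062 CPM in Day2-E6, against 1259 in the next lowest. KIT had 488 CPM in Day2-E3, against 418 in the next highest. BUB1B had 253 CPM in Day2-E4, against 194 in the next highest. No group of NLRP5 or OOEP values was picked out.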

How the results depend on the processing

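Under 13 alternatives and with each embryo left out in turn, both members kept a negative log2 fold change between the days, while their calls changed. NLRP5 passed the threshold without TMM (-1.11), with ERCC totals (-1.37), DESeq2 (-0.94), no filter (-0.99), limma on mean cell CPM (-1.50), plate as covariate (-1.79), plates 2 and 3 (-1.80) and against the second barcode set (-1.74). OOEP lost its call with plate as covariate (-0.59), plates 2 and 3 (-0.60), the first barcode set (-0.47), the replicate block (-0.46) and, chosen after seeing the data, against Day3-E1 to Day3-E3 (-0.40). With library sizes kept from before the filter, also chosen after seeing the data, the adjusted p was 0.0609 for NLRP5 and 0.0421 for OOEP by edgeR, with 1675 genes called against 1712. Leaving out single embryos gave -1.26 to -0.82 for NLRP5 and -0.64 to -0.49 for OOEP. The cause of these changes was not tested.

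Over all genes, 351 were called with the first barcode set, 542 against Day3-E1 to Day3-E3 and 806 with the embryo number as replicate block. Same-numbered embryos had correlations of -0.13 to 0.02 in their deviations from the day mean, so the numbers pair nothing. The 1117 higher and 595 lower genes became 890 and 981 without TMM, 456 and 1907 with ERCC totals, 723 and 1006 with limma, 1076 and 972 with plates 2 and 3, 1341 and 1114 against the second barcode set, 327 and 24 with the first and 455 and 87 against Day3-E1 to Day3-E3. The median log2 fold change moved from -0.04 to -0.27 without TMM, -0.77 with ERCC totals and -0.33 with limma. Single embryos left out gave 1327 to 2163 called genes.

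The thinned shares called 1631 genes without thinning and 0 to 617 with 1 embryo left out, the 617 without Day3-E1, and neither member in any of these settings. The excess spread of NLRP5 reversed with thinned cells (-0.191) and ranged from -0.0647 to 0.071 with 1 embryo left out; without the correction for few cells, chosen after seeing the data, the difference was 0.0238 for NLRP5 and 0.0746 for OOEP. Leaving out embryos raises the smallest exact p of the relation to activation genes, which limits its calls. That relation called 0 genes without the 2 farthest embryos, 241 relative to ERCC and 618 to 1351 with 1 embryo left out. There r for NLRP5 was -0.67 as Spearman's rho, -0.69 without the 2 farthest, -0.56 relative to ERCC and -0.90 to -0.71 with 1 left out, each weaker but for 1 embryo left out. For OOEP it was -0.87, -0.70 and -0.89 to -0.78 in the last 3 of these.

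Of 746 values of 28 other named genes, 613 kept direction and call, 89 lost and 32 gained a call, and 12 reversed. These were UBE2D3 (-0.25), AURKC (-0.17) and CFL1 (-0.028) with ERCC totals, HAS2 (0.028) against Day3-E1 to Day3-E3, and TLE4 without TMM (-0.18), with ERCC totals (-0.65), limma (-0.46), plate as covariate (-0.56) and plates 2 and 3 (-0.58) and with 1 embryo left out (-0.10 to 0.24). The members had their fewest UMI in Day3-E8, 14 of NLRP5 and 23 of OOEP among 388452 UMI on genes, which was not the shallowest Day 3 embryo.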

Other observations

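The 9 cells with fewer than 2000 UMI, which enter no comparison, held 5276 UMI on genes in all, 2 of them of NLRP5 and 0 of OOEP.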
